A study of Homo sapiens with 32 samples.

Results

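Ribosome biogenesis and RNA polymerase I transcription were followed through 45 genes, chosen by name from the pathway, of 19815 protein-coding genes in the count tables. Of these, 44 were found by symbol and UTP4 by its Ensembl identifier, since the tables list it under its older name CIRH1A. The libraries come from a polysomal RNA-Seq screen of 2 human breast lines. MCF10A is an immortalised, non-tumourigenic epithelial line and MDA-MB-231 is an invasive triple-negative cancer line. The treatments were normoxia (N), 24 hours in 0.5% O2 (H), and PP242, an inhibitor of the mTOR kinase in both of its complexes, given for 3 hours at 2.5 µM to normoxic (NPP) or to hypoxic cells (HPP). PP242 was dissolved in DMSO, which the control cells received according to the study's methods, and both lines grew in medium with serum, to which EGF, insulin, hydrocortisone and cholera toxin were added for MCF10A. Total mRNA (T) and mRNA from the pooled polysome fractions of a sucrose gradient (P) were sequenced for every treatment, which gave 8 groups per line and 2 biological replicates in each group. The titles number the T and the P library of each treatment and replicate alike, which ties them to 1 culture.

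Ribosomes are built in the nucleolus. RNA polymerase I transcribes the long precursor of the ribosomal RNAs, box C/D and box H/ACA small nucleolar ribonucleoproteins (snoRNPs) methylate and pseudouridylate it, and a succession of assembly factors cuts and folds it together with ribosomal proteins into the small and the large subunit. The genes of this pathway are known as growth genes whose transcription follows MYC, and mTOR signalling is known to drive both RNA polymerase I and the translation of ribosomal protein mRNAs. The 45 genes fell into 6 roles, namely RNA polymerase I and its factors (7 genes), box C/D snoRNP (3), box H/ACA snoRNP (4), assembly of the small subunit (16), assembly of the large subunit (13) and nucleolar scaffold proteins (2).

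Library totals ran from 18340916 to 46032327 counts with a median of 34561484. All 45 genes passed the filter on low counts in both lines, among 13124 genes tested for MCF10A and 13510 for MDA-MB-231. Levels are given as CPM, the share of a library scaled to a fixed total, after TMM scaling and differences as log2 fold change (log2FC) with its standard error (SE). A gene is said to have risen or fallen when its adjusted p was under 0.05. CPM values are shares of a library, so a change of all mRNA per cell could not be seen, and in bulk libraries fewer cells of a type and less RNA per cell cannot be told apart.

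The labels were checked first. CA9 and NDRG1, targets of the hypoxia-inducible factors, separated every hypoxic from every normoxic library. CA9 was at 13 CPM or more in hypoxia and 0.0568 to 1.02 CPM in normoxia in MDA-MB-231. In MCF10A it was at 522 CPM or more against at most 26.9 CPM. The further targets VEGFA and ADM separated the libraries of MCF10A but not all of those of MDA-MB-231. In T of MDA-MB-231, VEGFA was at 276 and 318 CPM in HPP against 301 and 260 in N. ADM was at 91.1 and 67.3 CPM in HPP T against 78.6 and 47.2 in NPP T. In P of that line VEGFA separated them (228 CPM or more against at most 181), whereas ADM overlapped. Mitochondrial mRNA, which is not translated on cytosolic polysomes, made up between 5.15% and 8.28% of the counts of T libraries and between 0.437% and 1.14% of those of P libraries. The nuclear RNAs MALAT1 and NEAT1 were lower in the P than in the T library of each culture, except NPP replicate 2 of MCF10A. There MALAT1 was at 7.66 CPM in T and 26.8 in P, and NEAT1 at 296 and 313 CPM. In HPP replicate 2 of MCF10A, MALAT1 was at 6.71 CPM in T and 5.43 in P. MCF10A libraries held the basal keratins KRT5 (1190 CPM or more) and KRT14 (458 CPM or more). In contrast, the epithelial genes CDH1 and EPCAM and the basal factor TP63 were near 0 in them (at most 0.361, 0.461 and 0.226 CPM), while the mesenchymal genes VIM, FN1 and CDH2 were present in every library. MDA-MB-231 libraries held VIM (3110 CPM or more) and ZEB1 (43.6 CPM or more) and almost no KRT5, KRT14 or CDH1. However, the epithelial gene EPCAM was at 9.86 to 19.1 CPM in them and the mesenchymal genes CDH2 and SPARC were also near 0 (at most 1.53 and 0.796 CPM). Markers of leukocytes (PTPRC), endothelium (PECAM1) and fibroblasts (COL3A1) did not exceed 1.14, 2.17 and 0.512 CPM in any library. The other collagen gene read as a fibroblast marker, COL1A1, was above that level, at 3.62 to 19.2 CPM in MCF10A and 8.44 to 16.5 CPM in MDA-MB-231, and SPARC, which fibroblasts also express, lay at 91.7 to 203 CPM in the MCF10A libraries. COL1A1 in MCF10A was at 10.6 CPM or more in every hypoxic library and at 5.72 CPM or less in every normoxic one.

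A few MCF10A libraries stood apart from their replicates. In NPP T, the summed level of the 79 ribosomal protein mRNAs was 233085 CPM in replicate 2 and 88627 CPM in replicate 1, the long mRNA of MKI67 was at 27.6 and 168 CPM, and the nuclear RNA MALAT1 was at 7.66 and 124 CPM. HPP T replicate 2 leaned the same way (155352 against 91166 CPM of ribosomal protein mRNAs). In P replicate 1 held more in N (178941 against 82136 CPM), H (104383 against 53936 CPM) and HPP (25415 against 13289 CPM), but not in NPP (37196 against 37894 CPM). The part of this imbalance in the results was tested only by leaving out each library and by a transcript length offset.

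In normoxic total mRNA the level per kilobase of transcript varied widely among the 45 genes. The median was 30.2 CPM per kb for MCF10A, and for MDA-MB-231 it was 44.6 CPM per kb. NHP2, NCL, NOP10, NOP56 and FBL headed the order in MCF10A (272, 204, 198, 166 and 163 CPM per kb), and EBNA1BP2, NCL, FBL, NOP56 and NHP2 in MDA-MB-231 (324, 295, 282, 267 and 201 CPM per kb). At the lower end stood POLR1A, the largest RNA polymerase I subunit, in MCF10A (1.89 CPM per kb) and PWP2, a small subunit processome protein, in MDA-MB-231 (1.13 CPM per kb).

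Polysome loading in normoxia was compared as P over T. In MDA-MB-231, 6 genes were higher in P and 2 were lower, beside 4.42% of all genes tested that were higher and 8.64% that were lower. NOP56, a core protein of the box C/D snoRNP, was at 491 and 532 CPM in T and at 242 and 236 CPM in P (log2FC −1.10, SE 0.16, adjusted p = 0.000664). TAF1D, a subunit of the promoter selectivity factor of RNA polymerase I, was at 227 and 230 CPM in T and at 123 and 113 CPM in P (log2FC −0.95, SE 0.19, adjusted p = 0.00628). Both are known as host genes whose introns carry small nucleolar RNAs. Among the genes higher in P, FBL (log2FC 0.71, SE 0.18, adjusted p = 0.0207), the methyltransferase of the box C/D snoRNP, MRTO4 (0.71, SE 0.19, adjusted p = 0.0283) and EBNA1BP2 (0.68, SE 0.19, adjusted p = 0.0281) had the largest differences, and each lost its call in 3 of 16 fits that left out a library. The number of higher calls depended on which library was left out. The share of all genes in those fits is not given, so this cannot be read as particular to the 45. Higher calls numbered 13 with DESeq2, 12 with the replicate number as a separate block in T and in P and 13 with a transcript length offset. The shares of all genes that were higher there were 9.91%, 8% and 9.64%. In MCF10A no gene was called in either direction, and 0% of all genes tested were. In that line 15 of the 45, and 1660 of 13124 genes tested, had an unadjusted p under 0.05, and DESeq2 and the fits with a block for the replicate number, also within each fraction, or for the culture called 0 as well. With the length offset 2 were higher and 1 lower (1.28% and 1.62% of all genes). The offset and the block within each fraction were chosen after seeing the data.

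Under hypoxia with PP242 between 22 and 36 of the 45 genes fell in each line and fraction, and none rose. In MCF10A 23 of 45 genes fell in T and 0 rose, while 7.47% of all genes tested fell and 7.43% rose. The median log2FC of the 45 was −0.98 in T, against −0.01 over all genes tested. In P 22 of 45 fell and 0 rose, beside 11.9% and 10.2% of all genes, with a median of −0.99 against −0.04. In MDA-MB-231 28 of 45 fell in T (6.91% of all genes fell and 6.31% rose) and 36 of 45 in P (9.73% and 9.71%), none rose, and the medians were −0.69 and −0.67 against −0.05 and 0.01 over all genes. All 45 genes had a negative log2FC in both fractions of MDA-MB-231, and 38 in T and 43 in P of MCF10A.

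**Figure D1:**
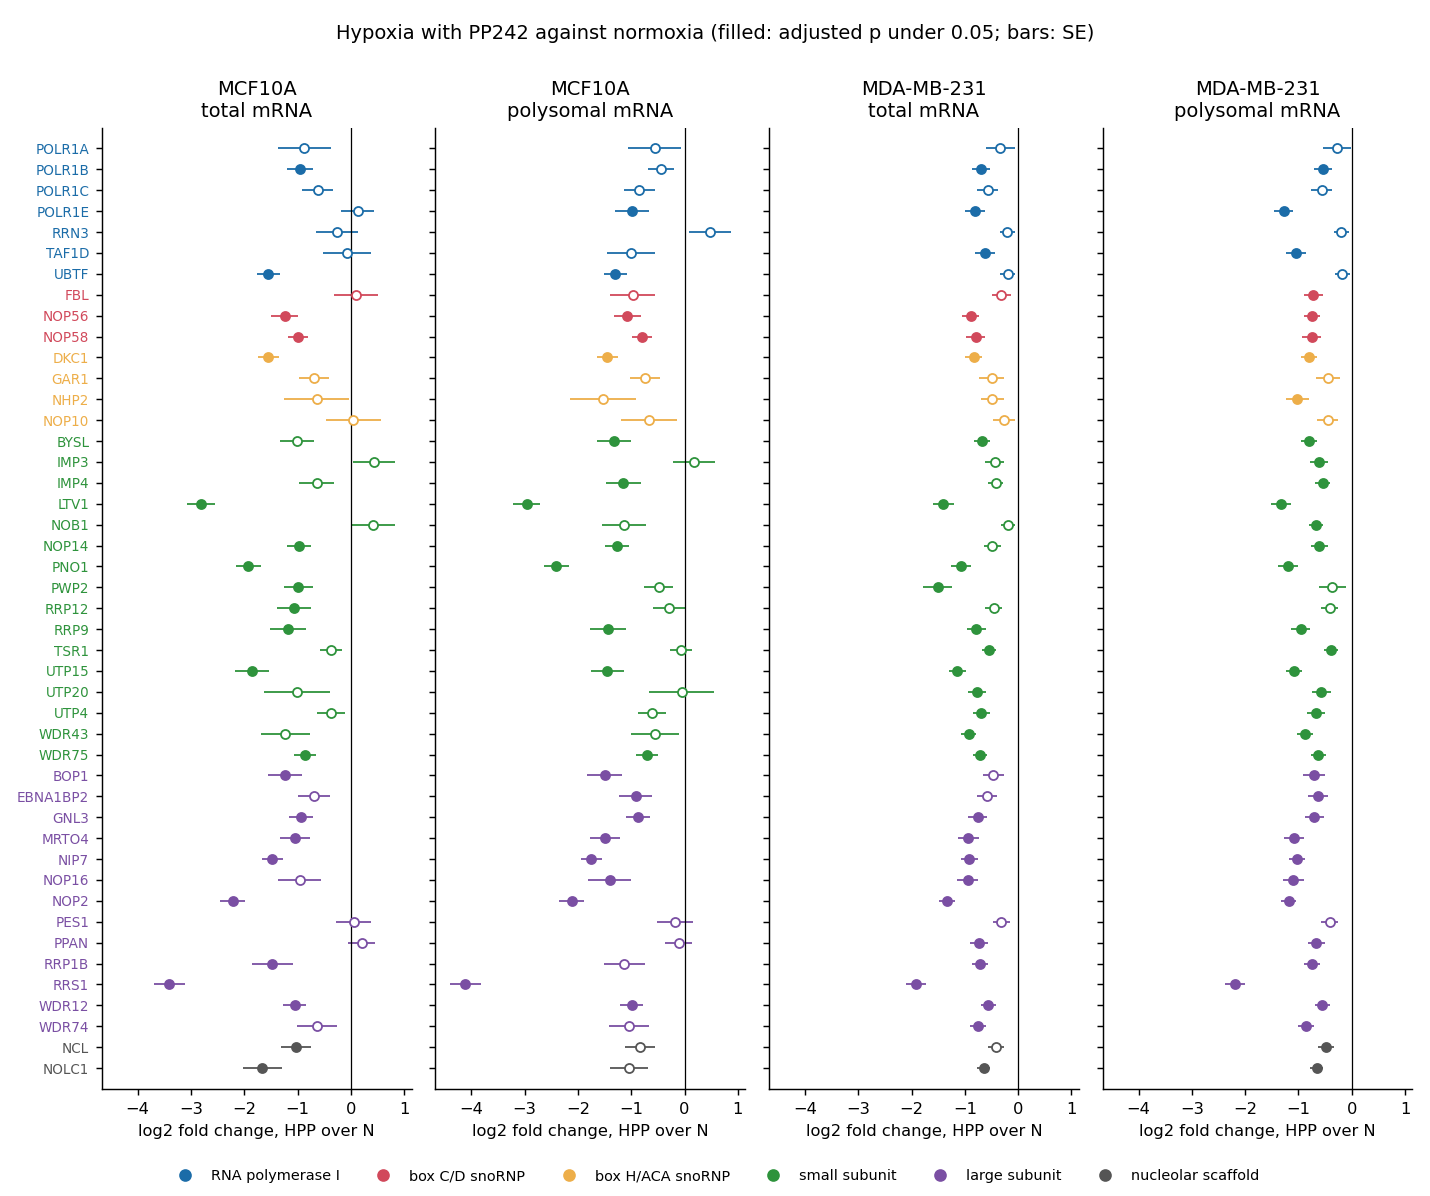
Each row is 1 of the 45 genes, coloured by role, and each panel a line and fraction. Points are the log2 fold change of hypoxia with PP242 over normoxia, bars its SE over 2 replicates per group, and filled points an adjusted p under 0.05. RRS1 lies farthest to the left in every panel and no filled point lies to the right of 0.

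These calls came from 2 libraries per group and their number depended on single libraries. The count in MCF10A T was 10 without either N T library, 12 without HPP T replicate 1 and 9 without HPP T replicate 2, and that in P was 10 without N P replicate 1 and 9 without HPP P replicate 2. In MDA-MB-231 T it was 14 without HPP T replicate 1, 13 without HPP T replicate 2 and 13 without N T replicate 2, and in P 23 without N P replicate 1, 18 without HPP P replicate 1 and 22 without HPP P replicate 2. The MCF10A medians lay between −0.984 and −0.885 in T and between −1.12 and −0.829 in P over the fits without 1 library, the P median being −0.829 without N P replicate 1 and −1.12 without N P replicate 2. A fit to only the N and HPP libraries gave 12 and 13 calls in T and P of MCF10A (4.4% and 5.94% of all genes fell). Without the filter on low counts fewer genes fell in T of MCF10A, as the closing section gives. The settings that follow gave more calls. With the replicate number as a block within each fraction 28 genes in T and 33 in P of MCF10A fell (14.9% and 19.8% of all genes), and 32 and 39 in MDA-MB-231 (10.2% and 13.3%). DESeq2 called 25 and 28 for MCF10A (9.72% and 14.9%) and 32 and 39 for MDA-MB-231 (7.79% and 13.4%), and the length offset 31 and 29 (13.3% and 17.5%) and 33 and 38 (9.1% and 13%). Over the fits that left out 1 library the share of all genes that fell lay between 2.11% and 10.3% for T of MCF10A, between 3.6% and 15.2% for its P, and between 1.08% and 5.86% and between 2.59% and 9.38% for MDA-MB-231.

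The largest decrease in each line and fraction was that of RRS1, a large subunit factor. RRS1, which brings the 5S ribonucleoprotein into the large subunit precursor, was at 48.5 and 43.0 CPM in N T of MCF10A, at 33.8 and 37.5 in H, at 12.7 and 16.8 in NPP and at 4.51 and 4.10 in HPP. In P of that line it was at 96.9 and 61.2 CPM in N, at 64.6 and 51.6 in H, at 21.6 and 18 in NPP and at 4.39 and 4.76 in HPP. Within each fraction, both libraries with PP242 lay below both without it, and the HPP libraries were the lowest. HPP lowered RRS1 10.6-fold in T (log2FC −3.41, SE 0.29, adjusted p = 8.62e-05) and 17.3-fold in P (−4.11, SE 0.30, adjusted p = 3.29e-05).

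In MDA-MB-231 the same gene was at 58.7 and 70.3 CPM in N T, at 59.8 and 65.9 in H, at 23.6 and 27.7 in NPP and at 16.9 and 17.3 in HPP. In P it was at 85.3 and 84.2 CPM in N, at 91.3 and 58.8 in H, at 29.7 and 31.7 in NPP and at 17.8 and 19.2 in HPP. The H libraries overlapped those of N in T, whereas the 4 libraries with PP242 lay below all others in each fraction. The decrease under HPP was 3.77-fold in T (log2FC −1.92, SE 0.19, adjusted p = 3.48e-05) and 4.58-fold in P (−2.20, SE 0.19, adjusted p = 4.52e-06).

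NOP2, a methyltransferase of the large subunit rRNA (chr12:6556863-6568691, GRCh38), went from 76.8 and 70.0 CPM in N T of MCF10A to 16 and 15.5 in HPP T, and from 90.7 and 71.1 CPM in N P to 20.9 and 16.3 in HPP P. In MDA-MB-231 it went from 88.4 and 91.5 CPM to 38.7 and 32.7 in T and from 80.5 and 88.7 CPM to 40.0 and 34.6 in P. No HPP library of NOP2 reached an N library. It fell 4.65-fold and 4.35-fold in T and P of MCF10A (log2FC −2.22, SE 0.24, and −2.12, SE 0.24, adjusted p = 0.000263 and 0.000249) and 2.52-fold and 2.27-fold in MDA-MB-231 (−1.33, SE 0.15, and −1.18, SE 0.14, adjusted p = 8.17e-05 and 8.16e-05). Of the 13 large subunit genes, 8 fell in T and 9 in P of MCF10A, and 10 and 12 in MDA-MB-231. PES1, a member of the PeBoW complex, was not called in any of the 4 HPP comparisons, with log2FC between −0.41 and 0.05, although its partners BOP1 and WDR12 fell in 3 and 4 of them.

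Small subunit factors fell in number as well. Of 16, 8 fell in each fraction of MCF10A, and 11 in T and 14 in P of MDA-MB-231. LTV1, which escorts the small subunit precursor out of the nucleus (chr6:143843338-143863812), was at 60.3 and 55.7 CPM in N T and at 8.96 and 7.52 in HPP T of MCF10A, and at 119 and 82.8 against 12.5 and 13.4 CPM in P. It fell 7.04-fold in T (log2FC −2.82, SE 0.26, adjusted p = 0.000113) and 7.80-fold in P (−2.96, SE 0.26, adjusted p = 7.9e-05). In MDA-MB-231 it was at 70.2 and 71.6 CPM against 27.1 and 26.5 in T and at 84.3 CPM or more against 37.1 and 36.6 in P, that is 2.64-fold and 2.51-fold lower (log2FC −1.40, SE 0.19, and −1.33, SE 0.19, adjusted p = 0.000446 and 0.000301). In MCF10A the groups were farther apart than in MDA-MB-231, and they overlapped in neither line.

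PNO1, which works with the nuclease NOB1 on the small subunit rRNA (chr2:68157888-68176238), was at 44.3 and 45.1 CPM in N T and at 10.5 and 13 in HPP T of MCF10A, and at 75.3 and 72.7 against 15.2 and 12.8 CPM in P. It fell 3.81-fold (log2FC −1.93, SE 0.24, adjusted p = 0.000473) and 5.29-fold (−2.40, SE 0.24, adjusted p = 0.000133). UTP15, a processome protein that binds the nascent rRNA (chr5:73565443-73583380), was at 39.4 and 36.1 CPM in N T and at 18.9 and 15.2 in HPP T of MDA-MB-231, and at 37.5 and 36.9 against 16.6 and 18.5 CPM in P. It fell 2.21-fold (log2FC −1.15, SE 0.16, adjusted p = 0.000489) and 2.12-fold (−1.08, SE 0.16, adjusted p = 0.000348). For both genes every HPP library lay below every N library of its fraction. PWP2 of MDA-MB-231 was barely above the filter, at 3.16 and 4.04 CPM in N T and at 1.26 and 1.25 in HPP T (log2FC −1.51, SE 0.27, adjusted p = 0.00309). In P, where it was at 2.61 and 3.03 CPM in N and at 2.57 and 1.83 in HPP, it was not called (log2FC −0.37).

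Among the snoRNP proteins DKC1, the pseudouridine synthase of the box H/ACA particle (chrX:154762742-154777689), was called in all 4 HPP comparisons. It went from 134 and 128 CPM to 46.1 and 43.4 in T and from 149 and 168 to 59.5 and 56.6 in P of MCF10A (log2FC −1.55, SE 0.20, and −1.45, SE 0.20, adjusted p = 0.000579 and 0.000646). In MDA-MB-231 it went from 235 and 273 CPM to 144 and 140 in T and from 317 and 345 to 184 and 196 in P (log2FC −0.84, SE 0.16, and −0.80, SE 0.16, adjusted p = 0.00371 and 0.00314). DKC1 was the only box H/ACA protein called in MCF10A and in T of MDA-MB-231. Its partners GAR1 and NOP10 were called in no HPP comparison, with log2FC between −0.74 and 0.04, and NHP2 was called only in P of MDA-MB-231 (−1.02).

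The box C/D proteins NOP56 and NOP58 fell in all 4 comparisons. NOP58 (chr2:202265736-202303661) was at 121 and 113 CPM against 62.1 and 55.5 in T, and at 135 and 135 against 78.7 and 77.0 in P of MCF10A (log2FC −0.996, SE 0.19, and −0.79, SE 0.19, adjusted p = 0.00469 and 0.0111). It lost its call in T without HPP T replicate 2 (adjusted p = 0.08) and in P without N P replicate 1 or HPP P replicate 2. NOP56 (chr20:2652593-2658393) was at 491 and 532 CPM against 277 and 274 in T, and at 242 and 236 against 136 and 149 in P of MDA-MB-231 (log2FC −0.89, SE 0.16, and −0.75, SE 0.16, adjusted p = 0.00258 and 0.00481). No HPP library overlapped N for either gene. FBL was called only in P of MDA-MB-231.

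Of the 7 genes of RNA polymerase I and its factors, 2 fell in each fraction of MCF10A and 3 in each of MDA-MB-231. UBTF, the factor that binds and opens the rRNA genes (chr17:44205033-44221626), was at 118 and 120 CPM in N T and at 40.7 and 40.7 in HPP T of MCF10A, and at 116 and 140 against 48.6 and 55.2 CPM in P. It fell 2.93-fold (log2FC −1.55, SE 0.22, adjusted p = 0.00108) and 2.46-fold (−1.30, SE 0.22, adjusted p = 0.00213). In MDA-MB-231 it was at 92.9 and 110 CPM in N T and at 80.6 and 96.9 in HPP T, so the groups overlapped, and it was not called (log2FC −0.20 in T and −0.17 in P). POLR1E, a subunit of the polymerase (chr9:37485948-37503697), fell in MDA-MB-231 from 60.8 and 78.1 CPM to 39.9 and 39.3 in T and from 79.1 and 98.4 to 34.9 and 38.2 in P (log2FC −0.81, SE 0.18, and −1.28, SE 0.18, adjusted p = 0.0108 and 0.000329), and its call in T was lost without N T replicate 2 or either HPP T library. In T of MCF10A it was at 32.3 and 36.6 CPM in N and at 29.4 and 45.8 in HPP, while in P it fell (log2FC −0.98, SE 0.31, adjusted p = 0.0424), a call that was lost in 17 of 24 other fits. The subunits POLR1A and POLR1C and the initiation factor RRN3 were called in no HPP comparison.

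The scaffold proteins NOLC1 and NCL, which are abundant in the nucleolus, fell together in T of MCF10A and in P of MDA-MB-231. NOLC1 (chr10:102152176-102163871) was at 148 and 155 CPM against 56.5 and 39.5 in T of MCF10A (log2FC −1.66, SE 0.36, adjusted p = 0.0104). In MDA-MB-231 it was at 288 and 286 against 192 and 174 CPM in T and at 304 and 345 against 207 and 204 CPM in P (log2FC −0.65, SE 0.12, and −0.66, SE 0.12, adjusted p = 0.00421 and 0.00252). The NOLC1 call in T was lost in 3 of 16 fits with a library left out in MCF10A (without either N T library or HPP T replicate 2) and without HPP T replicate 2 in MDA-MB-231 (adjusted p = 0.0873). NCL (chr2:231453531-231483641) was at 791 and 912 CPM against 486 and 470 in P of MCF10A, without overlap, and just missed the threshold (log2FC −0.83, SE 0.28, adjusted p = 0.0538).

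**Figure D2:**
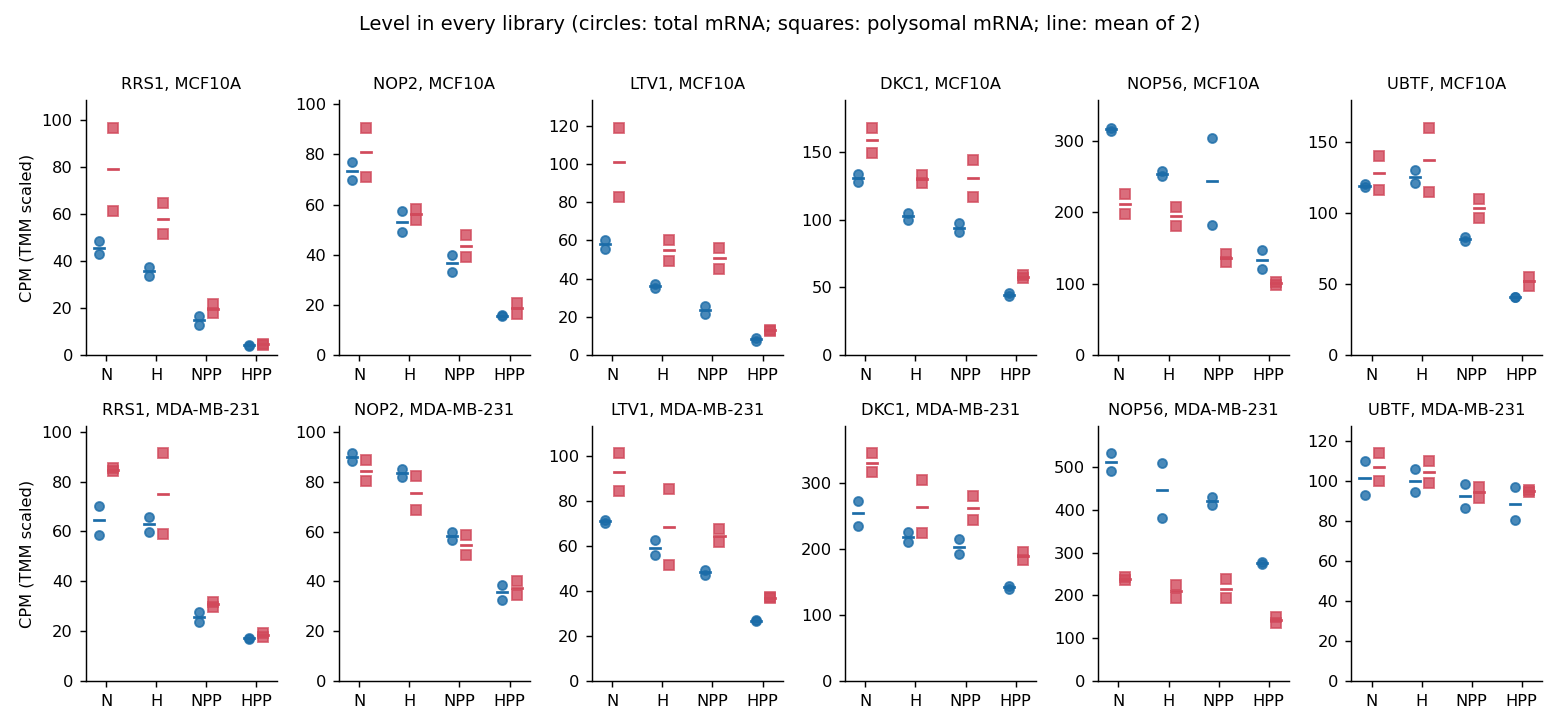
TMM-scaled CPM of RRS1, NOP2, LTV1, DKC1, NOP56 and UBTF in every library of MCF10A (top) and MDA-MB-231 (bottom), with total mRNA as circles, polysomal mRNA as squares and the mean of 2 replicates as a line. RRS1 is lowest in HPP in both lines and already low in NPP, whereas UBTF drops in MCF10A and stays between 80.6 and 114 CPM in the N and HPP libraries of MDA-MB-231.

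The lower calls under HPP were compared between fractions and lines. In MCF10A 17 genes were called lower in both T and P, 73.9% of those called in T and 77.3% of those in P, and in MDA-MB-231 27 were (96.4% and 75%). Between lines, 18 genes were shared in T (78.3% of the MCF10A and 64.3% of the MDA-MB-231 calls) and 21 in P (95.5% and 58.3%). Over all genes tested in both, the corresponding shares were 79.4% and 49.7% between fractions of MCF10A, 68.7% and 48.7% between those of MDA-MB-231, 37.1% and 39.4% between lines in T, and 47.4% and 55.7% in P. A total of 14 genes fell in all 4 comparisons: DKC1, GNL3, LTV1, MRTO4, NIP7, NOP2, NOP56, NOP58, PNO1, RRP9, RRS1, UTP15, WDR12 and WDR75. At the other end, 6 genes were called in none: GAR1, NOP10, PES1, POLR1A, POLR1C and RRN3.

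Each treatment alone gave fewer calls among the 45. Under PP242 in normoxia 2 of 45 genes fell in T of MCF10A (0.305% of all genes fell, 0.343% rose) and 1 in P (0.351% and 0.472%). In MDA-MB-231 1 fell in T (0.178% and 0.377%) and 4 in P (1.19% and 0.762%), and no gene rose in either line. RRS1 was among the called genes in all 4 comparisons, falling 3.10-fold in T and 3.99-fold in P of MCF10A (log2FC −1.63, SE 0.27, and −1.995, SE 0.27, adjusted p = 0.0289 and 0.00681) and 2.51-fold and 2.76-fold in MDA-MB-231 (−1.33, SE 0.18, and −1.47, SE 0.18, adjusted p = 0.00364 and 0.000474). LTV1 fell in T of MCF10A (log2FC −1.30, SE 0.24, adjusted p = 0.0375), and NIP7 (−0.67, SE 0.15, adjusted p = 0.0368), a large subunit factor, and BYSL (−0.64, SE 0.15, adjusted p = 0.0384), a small subunit factor, in P of MDA-MB-231 with NOP2.

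The medians of the 45 genes under NPP were −0.40 in T and −0.39 in P of MCF10A and −0.22 and −0.27 in MDA-MB-231, against 0.018, −0.035, −0.013 and −0.001 over all genes tested. Without NPP T replicate 2, the library that stood apart, the T median of MCF10A was −0.47 and no gene was called. The calls of RRS1 and LTV1 in T of MCF10A were lost in 11 and 13 of 16 fits that left out 1 library, and the count in T ranged from 0 to 4 over them. The single call in P of MCF10A, RRS1, was lost without N P replicate 1 or either NPP P library and became 3 without either NPP T library. RRS1 in T of MDA-MB-231 was lost without NPP T replicate 1 or N T replicate 2, and the 4 calls in P became 1 in 8 of the fits, those without any N T, N P, NPP P or HPP P library. Over the 16 fits of a line, the share of all genes that fell lay between 0.0224% and 1.92% for T of MCF10A, 0.0224% and 0.886% for its P, 0.014% and 0.377% for T of MDA-MB-231 and 0.384% and 1.26% for its P. A fit to only the N and NPP libraries called 0 in T and 1 in P of MCF10A (0% and 0.339% of all genes fell). In MDA-MB-231 it called 1 in T and 1 in P (0.023% and 0.864%). DESeq2 called 7 genes lower in each fraction of MCF10A (1.26% of all genes in T and 2.64% in P) and 4 in T and 10 in P of MDA-MB-231 (0.711% and 2.44%). With the replicate number as a separate block in T and in P the counts were 4 and 7 for MCF10A (0.831% and 2.53% of all genes fell) and 2 and 8 for MDA-MB-231 (0.481% and 1.95%), and with the length offset 9 and 9 for MCF10A (0.93% and 3.1%).

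Hypoxia alone gave no call among the 45 in either fraction of either line, beside 1.54% and 1.49% of all genes tested that were called either way in T and P of MCF10A and 1.27% and 2.29% in MDA-MB-231. The number with an unadjusted p under 0.05 was 6 in T and 8 in P of MCF10A and 2 and 16 in MDA-MB-231, beside 1426 and 1636 of 13124 and 1712 and 2327 of 13510 genes tested. DESeq2 called 0 in T and 2 in P of each line, all lower (1.3% of all genes for MCF10A and 1.92% for MDA-MB-231 in P). With the length offset 1 gene was higher in T of MCF10A (2.94% of all genes), and in its P 1 was higher and 1 lower (3.44% and 1.76%). In P of MDA-MB-231 2 were lower with it (2.21%). Negative values numbered 41 and 38 of 45 for MCF10A and 39 and 40 for MDA-MB-231, beside 53.1% and 55.6% and 53.1% and 49.2% of all genes. Medians were −0.36 and −0.32 for MCF10A and −0.17 and −0.27 for MDA-MB-231, against −0.030, −0.067, −0.019 and 0.005 over all genes. Without H P replicate 1, edgeR called 1 gene in P of MDA-MB-231.

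**Figure D3:**
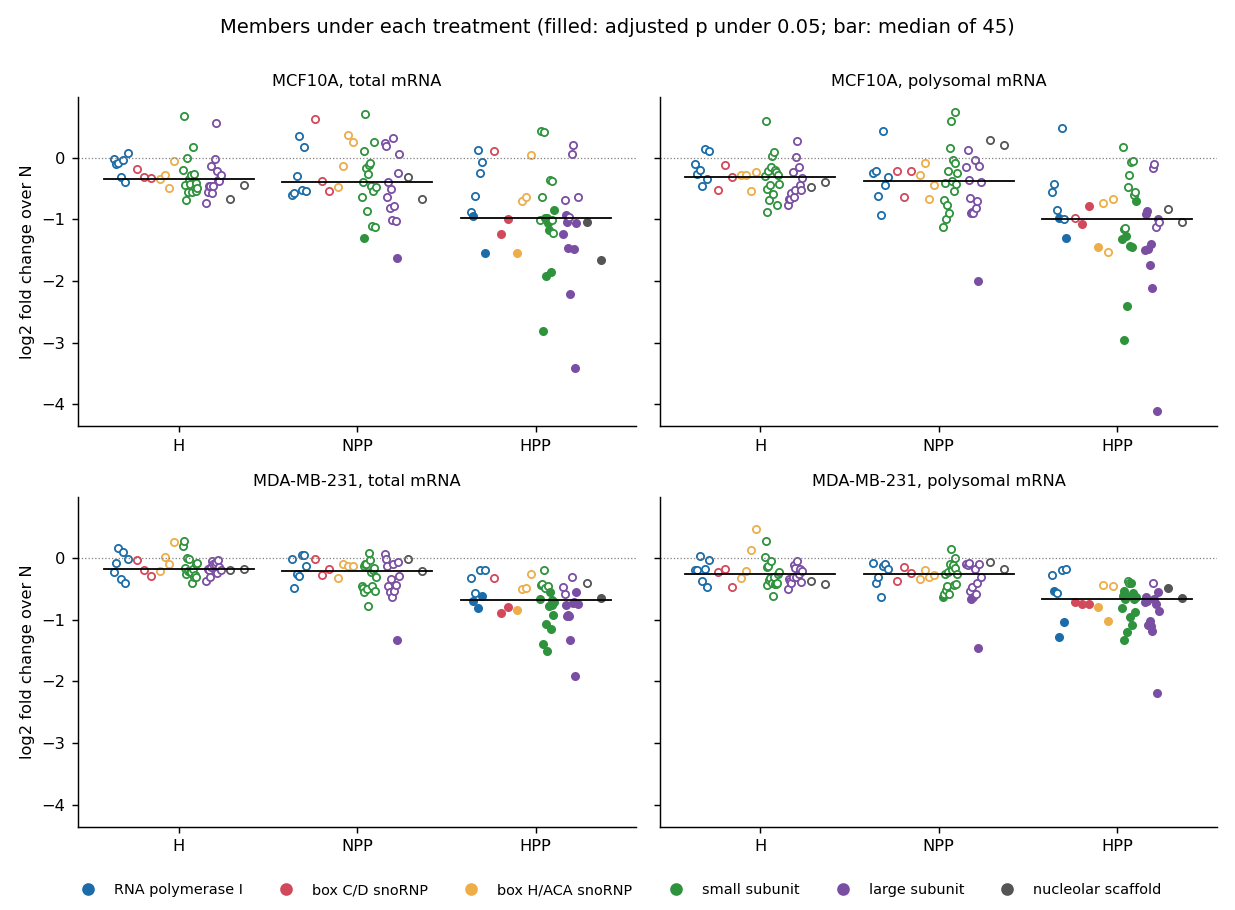
Log2 fold change over normoxia of each of the 45 genes under H, NPP and HPP, by line and fraction, with points coloured by role, filled where the adjusted p was under 0.05, and a bar at the median. The bars step down to −0.98 and −0.99 under HPP in MCF10A and to −0.69 and −0.67 in MDA-MB-231, below those of either treatment alone. The 3 treatments share their normoxic libraries.

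PP242 was also compared within hypoxia, HPP against H. In MCF10A 8 genes fell in T and 9 in P (2.42% and 3.87% of all genes fell), and in MDA-MB-231 16 and 18 (2.08% and 6.62%). RRS1 fell most in each line, 8.28-fold in T and 12.7-fold in P of MCF10A (log2FC −3.05, SE 0.29, and −3.67, SE 0.29, adjusted p = 0.000452 and 0.000179) and 3.68-fold and 4.05-fold in MDA-MB-231 (−1.88, SE 0.19, and −2.02, SE 0.19, adjusted p = 0.000155 and 1.4e-05). LTV1 fell 4.38-fold in T and 4.24-fold in P of MCF10A, NOP2 3.38-fold in T and PNO1 3.88-fold in P. In MDA-MB-231 NOP2 fell 2.34-fold in T and 2.02-fold in P, PWP2 2.43-fold in T and NHP2 2.21-fold in P. A fit to only the H and HPP libraries called 0 genes in T of MCF10A (RRS1 adjusted p = 0.138 by edgeR), 1 in P, which was RRS1, and 4 in T of MDA-MB-231 (0%, 0.174% and 0.367% of all genes fell). In T of MCF10A DESeq2 called 14 (4.4% of all genes) and the block within each fraction also 14 (5.49%). NHP2 in P of MDA-MB-231 had a log2FC of −0.61 with the length offset. The counts were 5, 4 and 4 in T of MCF10A without HPP T replicate 1, H T replicate 2 and HPP T replicate 2, and 5 in P without HPP P replicate 2. In MDA-MB-231 they were 6, 3 and 2 in T without the same libraries, and 9, 3 and 7 in P without H P replicate 1, HPP P replicate 1 and HPP P replicate 2. The share of all genes that fell over the fits without 1 library lay between 0.335% and 3.92% for T of MCF10A, 0.503% and 5.6% for its P, 0.0558% and 2.69% for T of MDA-MB-231 and 1.49% and 6.9% for its P. NHP2 lost its call without HPP P replicate 1 (adjusted p = 0.073), and PWP2 without HPP T replicate 1, HPP T replicate 2 or H T replicate 2.

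Whether the joint treatment differed from the sum of both was tested as an interaction of hypoxia and PP242. No gene of the 45 was called in either fraction of either line, beside 0% of all genes in T and P of MCF10A and 0.0074% in T and in P of MDA-MB-231. The medians were −0.26 and −0.27 for MCF10A and −0.30 and −0.14 for MDA-MB-231, against −0.059, −0.017, −0.015 and 0.011 over all genes tested. Without NPP T replicate 1 or 2 the median in T of MCF10A was −0.482 or −0.102, and without H P replicate 1 that in P of MDA-MB-231 was −0.01. Over the fits without 1 library those of MCF10A P lay between −0.442 and −0.182. The interaction was negative for 35 and 35 of the 45 genes in MCF10A and for 45 and 40 in MDA-MB-231, beside 56.4%, 51.6%, 52.5% and 48.1% of all genes. An unadjusted p under 0.05 was reached by 6 genes in T and 6 in P of MCF10A and by 4 and 3 in MDA-MB-231, beside 230, 356, 133 and 563 of all genes, and DESeq2 called 1 gene lower, in P of MCF10A (0.0914% of all genes).

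The pathway and the ribosomal protein mRNAs parted in the comparison of fractions. Under HPP the 79 ribosomal protein genes had a median log2FC of 0.36 in T and −2.82 in P of MCF10A, with 0 and 74 called lower, and of −0.15 and −1.96 in MDA-MB-231, with 0 and 79 called lower. Without HPP T replicate 2 the T median of ribosomal protein genes in MCF10A was −0.05. Their P median was −2.09 with 32 called lower without N P replicate 1, −2.45 with 18 called without HPP P replicate 2, and −2.19 with the length offset. Translational efficiency (Te), the change in P minus the change in T, had a median of −0.23 over the 45 under HPP for MCF10A and of −0.01 for MDA-MB-231, against −3.20 and −1.78 over ribosomal protein genes and 0.05 and 0.06 over all genes tested. The MCF10A median was 0.06 with the length offset and 0.08 without N P replicate 1, and that of MDA-MB-231 was at or above 0 with no filter (0.005) and without N T replicate 1 (0.001). None of the 45 was called for Te under any treatment in either line. The shares of all genes called for Te either way were 0% under H, NPP and HPP for MCF10A and 0.0148%, 0.34% and 0.696% for MDA-MB-231. An unadjusted p under 0.05 was reached by 0, 2 and 2 of the 45 in MCF10A and by 0, 0 and 2 in MDA-MB-231 under H, NPP and HPP, beside 23, 296 and 433 and 180, 295 and 454 of all genes, and DESeq2 called 0 of the 45 in all. The MCF10A median of Te over ribosomal protein genes was −2.55 without N P replicate 1, −2.72 without HPP T replicate 2 and −2.34 with the length offset. For ribosomal proteins the edgeR test called 0, 0 and 0 in MCF10A, where 75 of 79 had an unadjusted p under 0.05 under HPP, and 0, 36 and 73 lower in MDA-MB-231. The 73 became 48 without N T replicate 1, 47 without HPP P replicate 1 and 58 with the culture as a block. In MCF10A under HPP, DESeq2 called 71 of them lower for Te, the block within each fraction 63 and the length offset 55. Ribosomal protein genes have many processed pseudogenes, and reads shared with them are uncertain.

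**Figure D4:**
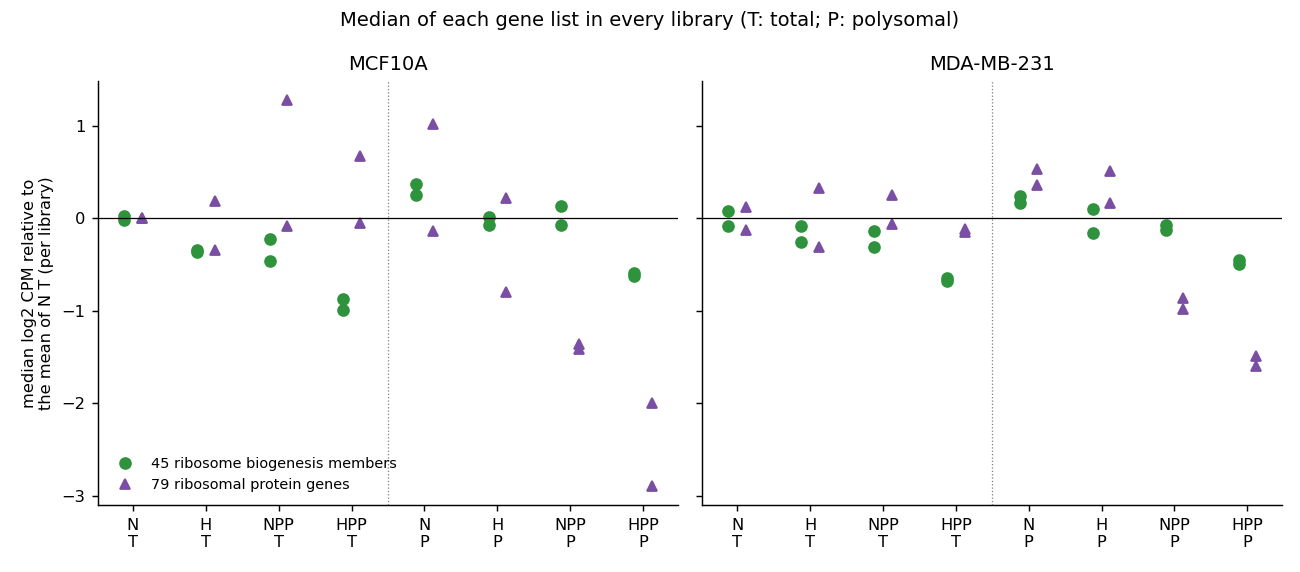
Median over 45 ribosome biogenesis genes (circles) and 79 ribosomal protein genes (triangles) of the log2 CPM of each library relative to the mean of N T, for total (T) and polysomal (P) libraries. In P under HPP the ribosomal protein medians lie between −2.90 and −1.49 and those of the biogenesis genes between −0.62 and −0.45. NPP T replicate 2 of MCF10A is the triangle at 1.28.

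The first bases of these mRNAs were set beside that contrast. Ribosomal protein mRNAs are known to begin with a terminal oligopyrimidine (TOP) tract, a C followed by further pyrimidines at the cap, through which mTOR controls their translation. RefSeq promoter windows (GRCh38.p14) were matched for 38 of the 45 genes by symbol, and not for RRS1, BOP1, NOP58, NOLC1, POLR1E, RRP1B and RRP12. A C at the annotated start followed by at least 4 bases that are C or T, on the transcribed strand, was found for 3 of 38 (7.89%), FBL, NOB1 and TAF1D, against 43 of 63 ribosomal protein genes with a window (68.3%) and 4.01% of 27305 windows. The 20 bases from the annotated start are shown for these 3 genes, for NOP2, LTV1, PNO1 and UBTF as members that fell, for NHP2 for its low Te, and for the 2 ribosomal protein genes of smallest p in P of MDA-MB-231 under HPP, with pyrimidines that run on from the start in capitals.
RPS18 (chr6:33272075-33272094, plus strand): CTCTCTTCCacaggaggcct
RPL12 (chr9:127451387-127451406, minus strand): CCTCTCggctttcggctcgg
FBL (chr19:39846360-39846379, minus strand): CTTTTCCacgtgcgaaagcc
NOB1 (chr16:69754907-69754926, minus strand): CTCTCacgcagccaacatgg
TAF1D (chr11:93741476-93741495, minus strand): CCTTTTCTTCCgcacggttg
NOP2 (chr12:6568272-6568291, minus strand): gtggcgagtgccggccgaaa
LTV1 (chr6:143843338-143843357, plus strand): gtgacgttatcgccgggtcc
PNO1 (chr2:68157888-68157907, plus strand): gcagctgcgcacgtgtttca
UBTF (chr17:44219656-44219675, minus strand): gtgcttttcgccgcgaggag
NHP2 (chr5:178153866-178153885, minus strand): aagtgatgcctaaagctgtg

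In the order of Te under HPP the same 5 genes stood lowest in both lines, though none was called. They were NOB1 (log2 Te change −1.56, SE 0.58), POLR1E (−1.11, SE 0.44), FBL (−1.07, SE 0.59), TAF1D (−0.93, SE 0.63) and NHP2 (−0.89, SE 0.86) in MCF10A. In MDA-MB-231 the values were −0.54 (SE 0.30) for NHP2, −0.47 (SE 0.26) for POLR1E, −0.47 (SE 0.19) for NOB1, −0.42 (SE 0.27) for TAF1D and −0.40 (SE 0.25) for FBL. The adjusted p of these Te changes was 0.977 for MCF10A and 1 for MDA-MB-231. The 3 genes with a pyrimidine start had a median of −1.07 for MCF10A and −0.42 for MDA-MB-231, against −0.15 and 0.01 for the 35 genes with a window and no such start. The annotated starts are those of 1 transcript per gene, and the starts used in these cells were not measured. The 5 lowest genes also have short annotated transcripts, of 780 to 1855 bases, and the 5 highest in MCF10A have long ones, of 3506 to 9031 bases. GAR1, at 1015 bases, had a Te change of −0.04 in that line. The order and these medians are from the main fit without the length offset, and the part of transcript length in them was not tested.

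NOB1 was the clearest of these by level. In MCF10A it was at 65.4 and 77.1 CPM in N T, at 67.7 and 123 in HPP T, at 127 and 96.5 in N P and at 51.9 and 49.8 in HPP P. In MDA-MB-231 it was at 93.1 CPM or more in N T, at 85.5 and 89.2 in HPP T, at 129 and 123 in N P and at 80.9 and 78.0 in HPP P. The gap between groups was wider in P than in T, and HPP T replicate 2 of MCF10A, high in NOB1, was also the library with more ribosomal protein mRNA. At the other end, PWP2 had the highest Te change in MDA-MB-231 (1.14) at the low counts given above.

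**Figure D5:**
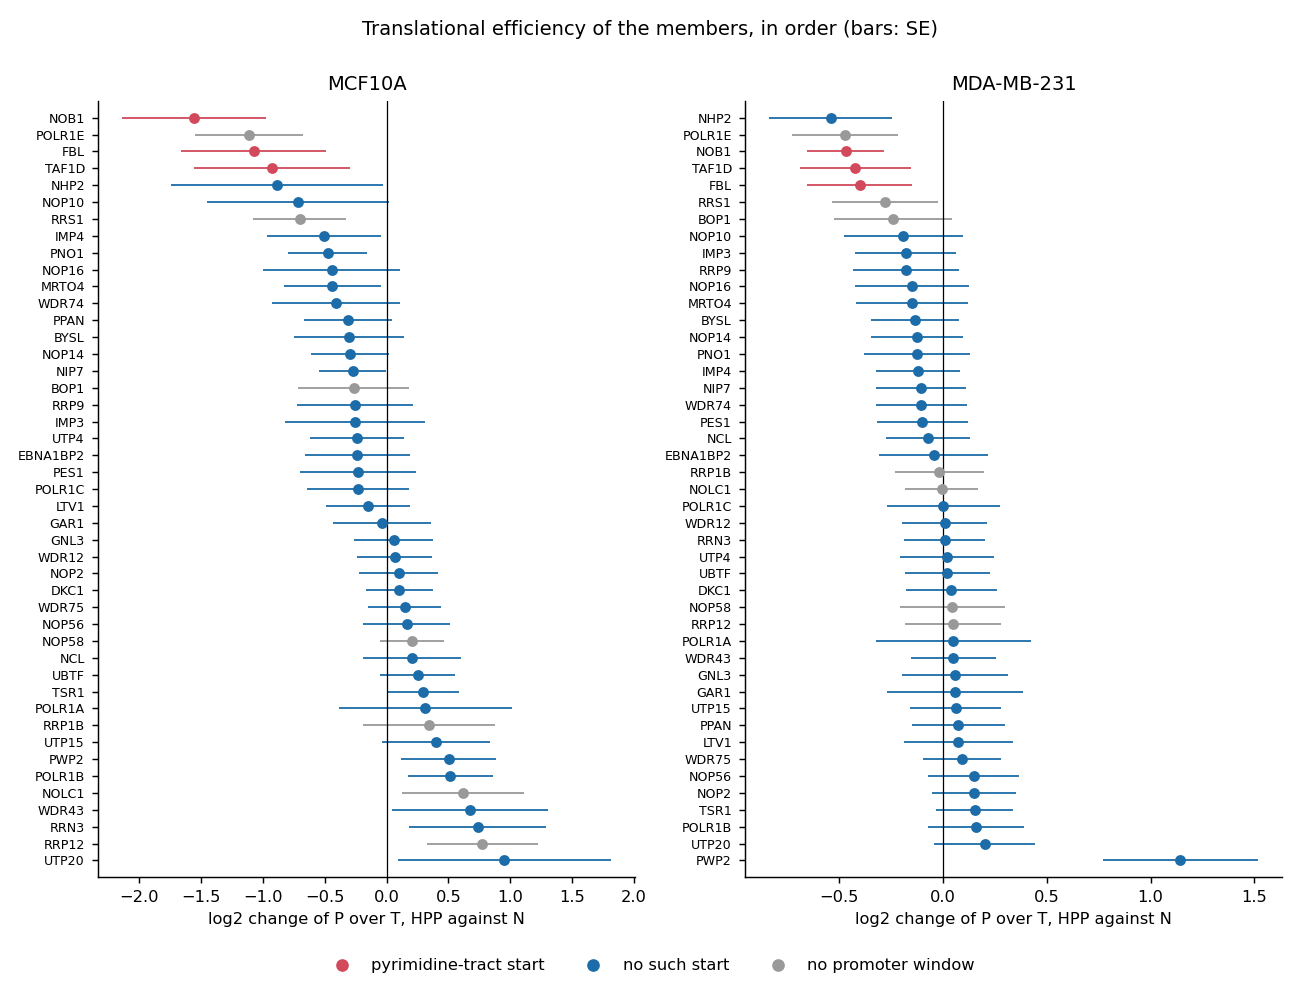
Te change under HPP of the 45 genes in rising order in each line, with SE bars, coloured by whether the annotated start is a pyrimidine tract. The 3 red points, FBL, NOB1 and TAF1D, are among the 5 lowest in both panels.

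The size of the HPP effect was compared between lines. In a joint fit of 32 libraries the HPP effect in MDA-MB-231 minus that in MCF10A was positive and called for 4 of 45 genes in T and 5 in P. Of all 14298 genes tested, 291 in T and 309 in P were positive and called, and 3.31% and 3.6% were called either way. The median difference was 0.31 in T and 0.27 in P, against 0.046 in T and 0.046 in P over all genes tested. RRS1 differed by 1.59 (SE 0.32, adjusted p = 0.00724) in T and 1.88 (SE 0.32, adjusted p = 0.0017) in P, LTV1 by 1.51 (SE 0.30, adjusted p = 0.00683) and 1.61 (SE 0.30, adjusted p = 0.00357), and UBTF by 1.45 (SE 0.26, adjusted p = 0.00341) and 1.10 (SE 0.26, adjusted p = 0.0194). NOP2 differed by 0.98 (SE 0.25, adjusted p = 0.03) and 0.92 (SE 0.25, adjusted p = 0.0411), with calls lost in 10 and 25 of 39 other fits, and PNO1 only passed in P (1.19, SE 0.29, adjusted p = 0.0218). For H and NPP no gene of the 45 differed between lines (0.266% and 0.056% of all genes called in T, 0.329% and 0.126% in P), with 0 and 2 genes at an unadjusted p under 0.05 in T, 0 and 0 in P, and 0 calls by DESeq2. Under HPP a fit to only the N and HPP libraries gave 2 higher calls in T and 0 in P (0.449% and 0.248% of all genes), with RRS1 in P at an adjusted p of 0.0673. The length offset gave 2 lower calls in T and 1 in P (2.95% and 4.13% of all genes) beside 5 higher in each (3.48% and 4.42%) and a median of 0.035 in P. DESeq2 gave 5 higher calls and 1 lower in T (2.57% and 2.66%), with a median of 0.159, and 7 higher and 0 lower in P (3.44% and 3.06%). The number of line differences under HPP in T rose without NPP T replicate 1 of MCF10A. It fell without HPP T replicate 2 of MCF10A, where UBTF alone was left. In P the number fell without either N P library or HPP P replicate 2 of MCF10A. It also fell without any N P or HPP P library of MDA-MB-231. Without NPP T replicate 1 of MCF10A some genes differed in the NPP effect in T as well. The share of all genes in these fits is not given, so these changes in number cannot be read as particular to the 45.

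A further list of ribosome assembly genes, outside the 45, gave smaller medians. Under HPP 22 fell, 2 rose and 77 were not called in T of MCF10A, and 30 fell, 2 rose and 69 were not called in P. In MDA-MB-231 36 fell, 1 rose and 64 were not called in T, and 43 fell, 0 rose and 58 were not called in P. Their medians were −0.54 and −0.54 for MCF10A and −0.43 and −0.43 for MDA-MB-231. URB2, a nucleolar assembly protein, fell most in T of both lines (log2FC −3.14, SE 0.45, adjusted p = 0.0011 in MCF10A, and −1.51, SE 0.18, adjusted p = 0.000141 in MDA-MB-231), and was called under NPP in T as well (−2.19, SE 0.43, adjusted p = 0.0468, and −1.14, SE 0.17, adjusted p = 0.00923), though the former call was lost in 17 of 24 other fits. NOL6 (−2.05, SE 0.34, adjusted p = 0.00244) and UTP11L (−1.71, SE 0.26, adjusted p = 0.00139), both of the small subunit, followed in MCF10A, and BRIX1 (−1.37, SE 0.19, adjusted p = 0.000523), of the large subunit, in MDA-MB-231. The genes against the trend in MCF10A were EFTUD1, a GTPase of late large subunit maturation (log2FC 1.30, SE 0.24, adjusted p = 0.00444 in T and 1.60, SE 0.24, adjusted p = 0.00122 in P), and DIEXF (1.06, SE 0.25, adjusted p = 0.0167, and 1.58, SE 0.26, adjusted p = 0.00178). In MDA-MB-231 it was GLTSCR2, a large subunit factor, which rose in T (0.51, SE 0.14, adjusted p = 0.0268) and fell in Te (−1.18, SE 0.20, adjusted p = 0.00656).

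The mRNA of MYC, the transcription factor best known for driving these genes, rose under HPP. It was at 198 and 180 CPM in N T and at 353 and 446 in HPP T of MCF10A (log2FC 1.08, SE 0.29, adjusted p = 0.0257) and at 185 and 188 against 274 and 282 CPM in MDA-MB-231 (0.58, SE 0.13, adjusted p = 0.0122), with no overlap in either line. In P it rose by 1.29 (SE 0.29, adjusted p = 0.00838) and 0.54 (SE 0.13, adjusted p = 0.0117). These 4 calls of MYC were lost in 4, 2, 3 and 3 of 24 other fits, which in T included those without either N T library. Under NPP MYC was called only in P of MCF10A (log2FC 1.53, SE 0.29, adjusted p = 0.032), and not in T (1.27, adjusted p = 0.0872) or in T and P of MDA-MB-231 (0.42 and 0.42, adjusted p = 0.228 and 0.156). Under H alone its log2FC lay between −0.15 and 0.14. MXI1 and MNT, which pair with MAX and repress the sites that MYC binds, rose in both lines too. MXI1 was at 12.8 and 11 CPM in N T and at 94.0 and 61.2 in HPP T of MCF10A (log2FC 2.70, SE 0.33, adjusted p = 0.000495), and at 22.7 and 19.3 against 56.0 and 46.3 CPM in MDA-MB-231 (1.28, SE 0.17, adjusted p = 0.000454). It also rose under H alone, where none of the 45 was called, in T and P of MCF10A (log2FC 1.82 and 2.65, adjusted p = 0.0159 and 0.00175) and in P of MDA-MB-231 (1.41, adjusted p = 0.000858). MNT rose in T by 1.62 (SE 0.44, adjusted p = 0.0284) and 1.43 (SE 0.21, adjusted p = 0.000729). MXD3 and MXD4, repressors of the same family, were called in MDA-MB-231 (1.39, SE 0.23, adjusted p = 0.00167, and 1.09, SE 0.19, adjusted p = 0.00258 in T) and had log2FC of 0.28 and 0.23 in MCF10A. Under NPP, where RRS1 in T and 4 of the 45 in P of MDA-MB-231 fell, MNT rose in that line by 1.19 in T and 1.03 in P (SE 0.21 each, adjusted p = 0.0185 and 0.0159), and MXD3 by 1.24 and 0.95 (SE 0.23 and 0.22, adjusted p = 0.0231 and 0.04). These 4 calls were lost in 5, 3, 4 and 8 of 24 other fits. None of MNT, MXD3, MXD4 and MXI1 was called under NPP in MCF10A, nor MXI1 in MDA-MB-231. Of MAX itself the log2FC under HPP in T was −0.48 and −0.02. MLX, a partner of MNT and of some MXD proteins, fell in P of MCF10A (−1.32, SE 0.32, adjusted p = 0.0128) and in T and P of MDA-MB-231 (−0.44, SE 0.13, and −0.89, SE 0.13, adjusted p = 0.0325 and 0.000305), and the call in T was lost in 14 of 24 other fits. Under NPP it fell in P of MDA-MB-231 (−0.75, SE 0.13, adjusted p = 0.00439), a call lost in 2 of 24. Only mRNA was measured, and the part of these regulators in the changes above was not tested.

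The 250 bases before each annotated start were searched for CACGTG, the E-box of MYC and MAX, which reads the same on both strands. It was found for 4 of 38 genes (10.5%), IMP4, NOP10, UTP20 and UTP4, against 6.33% of 27305 windows, 13.5% of 89 other assembly genes and 4.76% of 63 ribosomal protein genes. The shorter ACGTG, the core of hypoxia response elements, which lies inside CACGTG, was found on either strand for 28.9% of the 38, 29.2% of the other assembly genes, 25.4% of the ribosomal protein genes and 18.5% of all windows. In 3 genes an E-box lies within the last 60 bases before the start, shown here with CACGTG in capitals.
NOP10 (chr15:34343137-34343196, minus strand): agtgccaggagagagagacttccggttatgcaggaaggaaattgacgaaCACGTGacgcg
UTP20 (chr12:101280045-101280104, plus strand): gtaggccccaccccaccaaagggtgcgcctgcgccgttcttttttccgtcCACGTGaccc
UTP4 (chr16:69132589-69132648, plus strand): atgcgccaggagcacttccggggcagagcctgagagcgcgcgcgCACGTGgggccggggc
IMP4 fell in P of both lines (log2FC −1.15, SE 0.33, adjusted p = 0.0277 for MCF10A, and −0.54, SE 0.14, adjusted p = 0.0173 for MDA-MB-231) and was not called in T, and these calls were lost in 4 and 5 of 24 other fits. NOP10 was called in no HPP comparison, and UTP20 and UTP4 only in MDA-MB-231 (log2FC −0.77 and −0.69 in T, −0.57 and −0.67 in P). Bases after the start and more distant sites were not counted, and the 20 bases printed above for PNO1 and FBL also hold cacgtg.

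Of 7 proliferation genes, CCNE2 fell under HPP in both fractions of both lines and PCNA in both fractions of MCF10A. PCNA, the sliding clamp of DNA polymerase, was at 359 and 335 CPM in N T and at 91.9 and 116 in HPP T of MCF10A (log2FC −1.74, SE 0.31, adjusted p = 0.00334), and at 385 and 377 against 270 and 241 CPM in MDA-MB-231 (−0.58, SE 0.18, adjusted p = 0.0521). The call of PCNA in T of MCF10A was lost without HPP T replicate 1, and PCNA in T of MDA-MB-231 was called in 6 of 24 other fits, DESeq2 and both replicate blocks among them. CCNE2, a cyclin of the entry into S phase, went from 40.0 and 34.5 CPM to 6.06 and 5.27 in T of MCF10A (−2.72, SE 0.55, adjusted p = 0.00727, lost without HPP T replicate 2) and from 57.6 and 50.0 to 25.2 and 22.8 in MDA-MB-231 (−1.16, SE 0.16, adjusted p = 0.000503). In P of MCF10A the call of CCNE2 was lost without either HPP P library. MCM2, a subunit of the replicative helicase, was lower in both HPP T libraries than in both N T libraries of each line without passing the test, at 40.8 and 62.9 against 91.3 CPM or more in MCF10A (adjusted p = 0.0859, called with either replicate block) and at 89.5 and 96.5 against 115 and 124 CPM in MDA-MB-231 (adjusted p = 0.125). CDK1, the kinase of mitotic entry, was at 121 and 87.2 CPM in HPP T against 146 and 128 in N T of MCF10A (adjusted p = 0.368), and its groups overlapped in T of MDA-MB-231 (adjusted p = 0.766). CCNB1, MKI67 and TOP2A did not pass the test in T of either line (adjusted p = 0.295 or more). TOP2A rose in P of MDA-MB-231, from 406 and 433 CPM in N to 599 and 665 in HPP (0.59, SE 0.15, adjusted p = 0.0151), a call that was lost without any 1 of these 4 libraries. The part of the cell cycle in the decrease of the biogenesis genes was not tested.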

How the data were processed

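Expected counts per gene, estimated by the authors with RSEM from STAR alignments and deposited as whole numbers, were available for 32 poly(A)-selected libraries, 16 per line, with 2 replicates in each of 8 groups. No strand is stated for the counting, so overlapping antisense genes cannot be told apart. The labels name the build GRCh37 and the study's methods GRCh38, which the gene identifiers match. Gene coordinates are from GENCODE v44 on GRCh38. All columns were matched to a sample.

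Counts of protein-coding genes were filtered by filterByExpr, scaled by TMM and fitted per line with edgeR 4.0.16 (limma 3.58.1, R 4.3.3) by its quasi-likelihood F test with Benjamini-Hochberg adjustment over all genes tested and a threshold of 0.05. A joint fit of both lines gave the difference between lines. The SE is the absolute log2FC divided by the square root of the F statistic. It rests on a spread estimated over all groups of the fit, not on the 2 libraries of a group alone. DESeq2 1.42.0 and the other alternatives are given in the closing section. The fitting was tested on simulated data.

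Library totals of 18340916 to 46032327 counts set the precision, with a biological coefficient of variation of 0.325 (MCF10A) and 0.15 (MDA-MB-231). T and P libraries were paired by the culture number in their titles, and their deviations from the group means correlated between −0.25 and 0.214 for MCF10A and between 0.00239 and 0.348 for MDA-MB-231. The p-values measure the spread between replicate libraries.

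The genes given in every library were those of smallest p under HPP in each role, line and fraction, and those given with statistics had the largest changes among called genes of each comparison. NOB1, the genes of lowest Te and some uncalled or proliferation genes were chosen after their values were seen. The 45 genes and the lists of other assembly factors, ribosomal proteins, MYC network regulators and markers were chosen with earlier results of these data known.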

Additional observations from a re-analysis of the deposited data

Results flagged for a closer look

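The response to HPP differed between the lines, by the interaction test of the joint edgeR fit, for 5 of the 45 genes, beside 3.31% of all genes in total and 3.6% in polysomal mRNA. Fitted to N and HPP alone, 2 were called in total and 0 in polysomal mRNA. As the HPP effect in MDA-MB-231 minus that in MCF10A on the log2 scale, the difference in total mRNA was 1.51 for LTV1, 1.59 for RRS1, 0.98 for NOP2 and 1.45 for UBTF. In polysomal mRNA it was 1.19 for PNO1, 1.61 for LTV1, 1.88 for RRS1, 0.92 for NOP2 and 1.10 for UBTF. All 9 values are positive, which means a more negative HPP effect in MCF10A, and UBTF was not called in MDA-MB-231. The lines were counted in separate tables, and the part of the MCF10A libraries that stood apart in these differences was tested only by leaving each library out and by the transcript length offset, which called 5 higher and 2 lower in total and 5 higher and 1 lower in polysomal mRNA, where the median difference was 0.035.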

How the results depend on the processing

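None of 63 values of genes named by the rule and of 76 further called values of named genes changed sign under any alternative run, whereas 15 of 70 further values that were not called did. Medians that crossed 0 under some were those of Te in both lines and of the line difference in H P. Results are named by line, fraction and treatment, counts are of the 45 genes, and the replicate block within each fraction and the transcript length offset were chosen after seeing the data. The cause of the changes was not tested.

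With DESeq2 the genes called lower were 7 in MCF10A NPP T, 7 in NPP P, 2 in H P, 14 in HPP against H in T and 1 for the interaction in P, and in MDA-MB-231 4 in NPP T, 10 in NPP P and 2 in H P, with 13 higher for loading. Its line difference under HPP had 5 higher calls and 1 lower in T, with a median of 0.159, and 7 higher in P, and that under NPP in T a median of 0.106. All gene classes gave 11 higher for loading in MDA-MB-231. No filter gave 15 in MCF10A HPP T, 1 in NPP T and 1 in MDA-MB-231 H P. The share of all genes called with all gene classes and with no filter is not given. Only the libraries compared gave, in MCF10A, 12 in HPP T, 13 in HPP P, 0 in NPP T, and 0 and 1 for HPP against H in T and P, in MDA-MB-231 4 for HPP against H in T and 1 in NPP P, and 2 and 0 line differences in T and P. Upper-quartile scaling moved the medians to −0.896 in MCF10A HPP P, 0.242 for its loading and 0.197 for the line difference in T. The transcript length offset moved medians to −0.781 in MCF10A HPP P, −0.425 for HPP against H in P, 0.058 for Te under HPP, 0.102 for Te under NPP, and 0.035 and 0.152 for the line difference in HPP P and H T. It called lower, in MCF10A, 9 in NPP T (0.93% of all genes), 9 in NPP P (3.1%), 1 in H P (1.76%), 15 and 14 for HPP against H in T and P (5.5% and 8.04%) and 1 for loading (1.62%). In MDA-MB-231 it called lower 2 in NPP T (0.415%) and 2 in H P (2.21%). Line differences under HPP were 2 and 1 lower in T and P (2.95% and 4.13%), beside 5 higher in each (3.48% and 4.42%). The offset called higher 1 each in MCF10A H T, H P, HPP P and HPP against H in P (2.94%, 3.44%, 16.9% and 7.19%), 2 for loading (1.28%), and 13 for loading in MDA-MB-231 (9.64%).

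Same-numbered libraries correlated between 0.283 and 0.778 among MCF10A T groups but not among all groups of either line, and with 2 numbers this cannot show that they were paired across treatments. The T and P libraries of 1 culture were fitted with a culture block for loading and Te, which lost NOP16 (adjusted p = 0.0536 by edgeR) and gained PNO1 (0.0416) for loading in MDA-MB-231 and changed no other call among the 45. The replicate block called 2 in MDA-MB-231 NPP T, where the share of all genes is not given. The replicate block within each fraction called, in MCF10A, 28 in HPP T, 33 in HPP P, 4 in NPP T, 7 in NPP P, 1 in H P and 14 for HPP against H in T, and in MDA-MB-231 2 in NPP T, 8 in NPP P and 1 in H P, with 12 higher for loading.

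Leaving out 1 library leaves an arm with 1 sample, assumed to vary like the others. For H, loading and the line differences the share of all genes called in these fits is not given. Those counts therefore cannot be set beside it. Counts of lower calls ranged, in MCF10A, from 0 to 4 in NPP T, 9 to 25 in HPP T, 0 to 3 in NPP P, 9 to 30 in HPP P, and 4 to 12 and 5 to 11 for HPP against H in T and P. In MDA-MB-231 they ranged from 0 to 1 in NPP T, 13 to 29 in HPP T, 0 to 1 in H P, 1 to 4 in NPP P, 18 to 35 in HPP P, and 2 to 15 and 3 to 21 for HPP against H, with higher calls for loading from 0 to 12. Line differences ranged from 0 to 1 lower and 0 to 4 higher in NPP T, 0 to 1 lower and 1 to 7 higher in HPP T and 2 to 5 higher in HPP P. Medians in MCF10A ranged from −0.468 to −0.233 in NPP T, −0.452 to −0.226 in H P, −0.525 to −0.245 in NPP P, −1.12 to −0.829 in HPP P, −0.202 to 0.063, −0.187 to 0.146 and −0.301 to 0.077 for Te under H, NPP and HPP, −0.742 to −0.429 for HPP against H in P, −0.482 to −0.102 and −0.442 to −0.182 for the interaction in T and P, and 0.174 to 0.378 for loading. In MDA-MB-231 they ranged from −0.716 to −0.584 in HPP T, −0.368 to −0.14 in H P, −0.235 to −0.015, −0.17 to 0.032 and −0.121 to 0.001 for Te, −0.523 to −0.314 for HPP against H in P and −0.225 to −0.01 for the interaction in P. For the line difference they ranged from 0.09 to 0.302 in NPP T, 0.181 to 0.433 in HPP T, −0.155 to 0.139 in H P, 0.025 to 0.208 in NPP P and 0.13 to 0.376 in HPP P. With 2 libraries per group, small changes of weakly expressed genes were not detectable.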
